A study of Mus musculus with 8 samples.

Results

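The nuclear genes described here encode the subunits of respiratory complexes II, III, IV and V that are shared by nearly all tissues, together with cytochrome c. They were chosen by mouse symbol alone, as the genes whose symbol starts with Uqcr or Atp5 and Cyc1, Cycs, Sdha, Sdhb, Sdhc, Sdhd, Cox5a, Cox5b, Cox6b1, Cox6c and Cox7c, without pseudogenes and predicted genes. The rule gave 36 genes of the 49315 in the deposited table, 4 of complex II, 10 of complex III with cytochrome c, 5 of complex IV and 17 of complex V. Expression was measured by RNA sequencing of heart tissue from female and male C57BL/6 mice at 8 weeks of age, with 4 libraries per sex and no treatment or genetic change named in the labels. C57BL/6 is an inbred laboratory strain, and the purpose of the series was to compare the cardiac transcriptomes of the sexes. The labels name neither the part of the heart nor whether each library came from a separate animal, so p-values measure the spread between these samples, which may be technical.

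Respiratory complexes sit in the inner mitochondrial membrane and pass electrons from fuels to oxygen. Complex II oxidizes succinate and feeds electrons to ubiquinone, complex III carries them on to cytochrome c, and complex IV hands them to oxygen, while complexes III and IV pump protons. Complex V, the ATP synthase, lets the protons flow back through a rotating ring and makes ATP. Complex II is encoded wholly in the nucleus, whereas complexes III, IV and V also hold subunits made from mitochondrial DNA. Heart muscle is packed with mitochondria and covers most of its need for ATP in this way.

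The rotating ring of complex V is built of many copies of subunit c, which in the mouse has 3 genes, Atp5g1, Atp5g2 and Atp5g3. Their coding sequences from GENCODE M21 (GRCm38) are shown because the 3 genes encode the same mature protein in different bases. The stretches below are the last 225 bases of each coding sequence before the stop codon, joined across introns and written 5′ to 3′. Capitals mark the positions at which the 3 genes are not all alike. Atp5g1 was read from the minus strand within chr11:96073107-96073635, Atp5g2 from the minus strand within chr15:102663017-102665166 and Atp5g3 from the minus strand within chr2:73908596-73909296.
Atp5g1: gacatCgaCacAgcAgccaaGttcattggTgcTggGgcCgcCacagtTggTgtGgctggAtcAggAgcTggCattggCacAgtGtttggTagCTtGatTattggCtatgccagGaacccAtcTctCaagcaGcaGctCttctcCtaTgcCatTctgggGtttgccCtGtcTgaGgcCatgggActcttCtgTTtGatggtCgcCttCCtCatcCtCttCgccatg
Atp5g2: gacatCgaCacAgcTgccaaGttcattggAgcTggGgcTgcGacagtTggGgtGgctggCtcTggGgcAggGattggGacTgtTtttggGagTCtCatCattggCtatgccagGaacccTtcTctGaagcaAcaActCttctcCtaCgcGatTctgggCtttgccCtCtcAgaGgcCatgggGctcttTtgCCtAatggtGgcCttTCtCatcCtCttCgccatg
Atp5g3: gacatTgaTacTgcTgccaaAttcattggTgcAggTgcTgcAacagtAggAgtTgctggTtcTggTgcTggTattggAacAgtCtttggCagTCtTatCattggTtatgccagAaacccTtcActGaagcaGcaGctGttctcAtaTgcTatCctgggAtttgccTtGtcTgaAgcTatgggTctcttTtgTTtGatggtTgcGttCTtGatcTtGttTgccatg
The 75 codons of each stretch translated alike in all 3 pairs of genes. Between Atp5g1 and Atp5g2, 34 of 225 bases differed. Atp5g1 and Atp5g3 differed at 45 bases, and Atp5g2 and Atp5g3 at 48. Of the 57 positions in capitals, 52 were the last base of a codon, 5 the first base and 0 the middle base. The longest run of bases shared by all 3 genes was 8 bases.

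Nuclear genes of the respiratory chain are known as targets of NRF1, a transcription factor that binds a GC-rich palindrome, and of the ETS factor GABPA, also called NRF2. RefSeq promoter windows (GRCm38.p6, 250 bases before to 50 after a start, 300 in all) matched 28 of the 36 genes by symbol. Searched on both strands, the NRF1 palindrome was found in 9 of the 28 genes, 32.1%, beside 5.19% of all 27025 genes with a window and 10.34% of the 11632 whose symbol was tested in these hearts. CCGGAAG (GABPA) was found in 10 of 28, 35.7%, beside 9.93% of all genes and 18.15% of those tested. GGGCGG (SP1) was also found in 10 of 28, beside 38.2% and 65.2%. TNAAGGTCA (the ERR nuclear receptors) was found in 2, 7.1% beside 1.43% and 0.99%. The YY1 motif was found in 0 of 28, beside 1.17% and 2.43%. The median GC content was 58.7% in the 31 windows of these genes, 60.3% in those of tested genes and 52.7% in all windows. None of the 12 NRF1 matches in these windows overlapped a match to another of the motifs, and a match is a description of the letters only.

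The promoter of Sdha, the catalytic subunit of complex II, held 3 NRF1 matches, more than any other of the 28 genes. The stretch below, from 68 to 41 bases before the RefSeq start on the minus strand of chr13:74350281-74350308, is the longest run of its last 100 bases that overlaps no annotated exon, and is written 5′ to 3′ with the match it holds in capitals.
Sdha: ggaggggcgtgttGCGCAGGCGCagaat
Uqcr11, which had the largest difference between the sexes below, held no NRF1 match and 1 GABPA match in its window.

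Total counts ran from 32746054 to 35467832 in the female libraries and from 39612848 to 47097765 in the male ones, so depth and sex moved together. The 12 listed cardiomyocyte markers, Myh6 and Tnni3 among them, were all tested and summed to between 112600 and 121900 CPM (counts relative to library size, scaled by the TMM method) in every library. Of the 8 white adipocyte markers, 6 were higher in females by edgeR's test used below and 0 in males, beside 1.76% and 2.03% of all genes tested. They summed to 582.2 to 695.7 CPM in females and 494.8 to 569.9 in males, with Adipoq at 9.69 to 20.6 CPM in females and 1.62 to 4.60 in males. Most of these sums was Fabp4, with means of 526.7 CPM in females and 494.4 in males (edgeR adjusted p = 0.3). Listed red cell genes ranged from 555.9 CPM in female replicate 2 to 8805 in female replicate 4, and the skeletal muscle genes Myh1, Myh2 and Myh4 did not pass the filter on low counts. Of the 4 other genes of the skeletal muscle list, which the heart also expresses in part, 1 was higher in males and 0 in females. These counts stand beside 2.03% and 1.76% of all genes. The gene was Acta1, the skeletal actin (log2 fold change 0.69, edgeR adjusted p = 0.028). The others did not pass, with log2 fold changes of 0.15 for Ckm, -0.24 for Mylpf and -0.71 for Tnnt3 (edgeR adjusted p = 0.063, 0.49 and 0.15). Tnnt3 was at means of only 0.78 CPM in females and 0.48 in males.

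All 36 genes passed that filter, and nearly all were among the most abundant transcripts of the heart. Together they held 3.627% to 3.785% of the counts of the female libraries and 3.701% to 3.72% of the male ones. Per kilobase of summed exons their median level was 439 CPM, beside 2.9 for all 16180 genes tested, and 34 of the 36 lay within the 500 highest genes on that scale. Atp5a1, the alpha subunit of the catalytic head of ATP synthase, was the highest with 1734 CPM per kilobase, followed by Atp5b, the catalytic beta subunit, with 1423. Cox6b1, a complex IV subunit on the side of the intermembrane space, followed with 1039, then Uqcr11, a small complex III subunit, with 900.7 and Cyc1, the cytochrome c1 of complex III, with 829.3. At the lower end stood Cycs, the mobile electron carrier, with 137.1, Atp5g2 with 118.6 and Atp5l, a membrane subunit of ATP synthase, with 85.18. Atp5s, a coupling factor that is not a lasting part of the enzyme, was far lower at 11.63. Of the 35 neighbouring pairs in this order, 24 overlapped in their ranges over the 8 libraries and are not told apart by them.

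The order depends on the gene models. When each gene was instead divided by its longest coding transcript in GENCODE M21, a choice made after the data were seen, 3 of the 5 highest genes and 7 of the 10 highest were shared with the first order. Atp5b then led with 3147 CPM per kilobase, before Atp5a1 with 2033 and Atp5g3 with 1929. Atp5l moved most among the genes at the lower end, to 1009, since its summed exons span 6443 bases and its coding transcript 544. For Cyc1, Atp5mpl and Atp5s the coding transcript is longer than the summed exons used in counting (1520 against 1194, 612 against 365 and 1599 against 1485 bases). Their lower values on the second scale, such as 651.5 for Cyc1, reflect this mismatch of gene models.

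**Figure D1:**
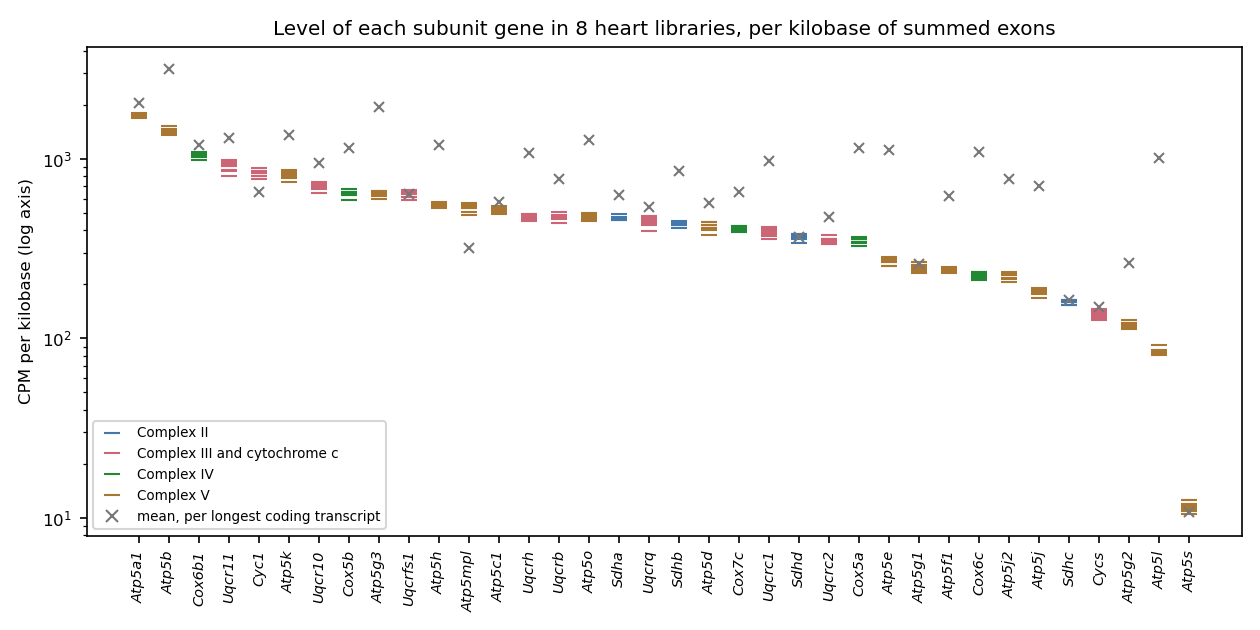
Level of each of the 36 genes in CPM per kilobase of summed exons on a log axis, with 1 dash per library (8 per gene, coloured by complex) and a grey cross for the mean per kilobase of the longest coding transcript. Atp5a1 and Atp5b stand highest at 1734 and 1423, Atp5s lowest at 11.63, and the cross of Atp5l lies at 1009 against dashes near 85.18.

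In the comparison of the sexes, 33 of the 36 genes had a higher fitted level in males, by a few percent, and none passed the test. Log2 fold changes, male minus female, ran from -0.04 for Atp5g2 to 0.15 for Uqcr11, with a median of 0.06 (4.19% higher in males), beside a median of -0.000744 for all genes tested, 49.7% of which were positive. Levels in this comparison rest on the TMM factors, which were 1.009 to 1.029 in the female and 0.9697 to 0.9959 in the male libraries. The unscaled shares of counts held by these genes, 3.627% to 3.785% in females and 3.701% to 3.72% in males, overlapped. With DESeq2 size factors and upper quartile scaling the median was 0.0586 and 0.0536. The part of scaling in the difference was not tested. By the quasi-likelihood test of edgeR with Benjamini-Hochberg adjustment, 0 of 36 were called at 0.05, and the adjusted p lay between 0.098 and 0.99, where 3.79% of all genes were called. At an unadjusted p below 0.05, 9 genes had a higher level in males (25%) and 0 a higher one in females, beside 10.1% and 9.39% of all genes. The levels of 9 genes did not overlap between the sexes, all 9 higher in males, beside 6.39% of all genes higher in males and 5.66% higher in females without overlap. DESeq2 called 3 of the 36, all higher in males, where it called 6% of all genes and 3.41% in that direction. Limma-voom called 0 of the 36, where it called 3.8% of all genes and 2.08% as higher in males. The 95% intervals of all 36 genes together spanned -8.17% to 19.2%, and those of 16 genes stayed within 10% either way. These genes varied little within a sex, with a median standard deviation (SD) of 0.0486 on the log2 scale beside 0.108 for all genes.

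**Figure D2:**
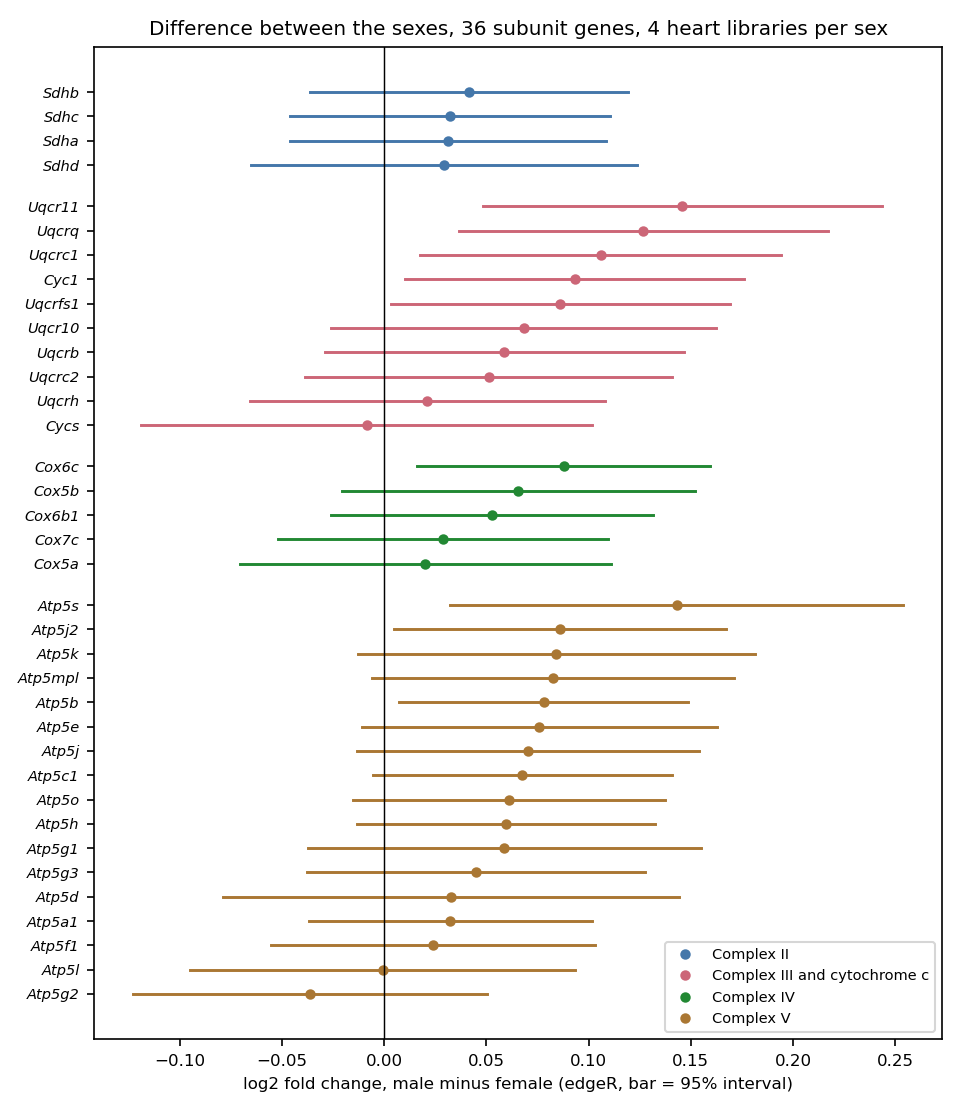
Log2 fold change of the 36 genes, male minus female, as points with 95% intervals as bars, grouped by complex and ordered within it. The points of 33 genes lie right of 0, Uqcr11 farthest at 0.15, and Atp5g2 lies farthest left at -0.04.

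Complex II had the smallest median difference of the 4 complexes, 0.03 on the log2 scale. Its 4 genes had log2 fold changes between 0.03 and 0.04, with 0 called, 0 at an unadjusted p below 0.05 and 0 without overlap. Sdhb, the iron-sulfur subunit (chr4:140961203-140979193), was at 984, 921.2, 952.1 and 969.4 CPM in female replicates 1 to 4 and at 988, 957.2, 1002 and 990.5 in the male ones. Female replicates 2 and 3 stood below all male libraries, while female replicates 1 and 4 lay in the male range (log2 fold change 0.04, SE 0.04, edgeR adjusted p = 0.57). Sdha, the flavoprotein that oxidizes succinate (chr13:74322254-74350280), had the highest level per kilobase of the complex, 467 CPM. It was at 1801, 1819, 1794 and 1762 CPM in females and at 1837, 1772, 1807 and 1916 in males. Its highest and next highest values were male, but male replicate 2 lay below 3 of the female libraries (95% interval of the difference -3.15% to 7.8%). Sdhd, a membrane anchor, was at 470.9, 417.6, 436.8 and 453 CPM in females and at 446.8, 454, 470.9 and 443.3 in males, with the same highest value in both sexes. Sdhc, the other anchor, had means of 511.5 ± 16.1 CPM in female and 523.1 ± 6.61 CPM in male libraries (SD, n = 4).

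Complex III had the largest median difference of the 4 complexes. Of its 10 genes with cytochrome c, 9 had positive log2 fold changes. The median of the 10 was 0.08, 5 had an unadjusted p below 0.05, all higher in males, and 3 did not overlap between the sexes. These are 5 and 3 of 10 genes, beside 10.1% and 6.39% of all genes in that direction. Uqcr11 (chr10:80402997-80406830) was at 584, 511.6, 553.2 and 543.8 CPM in females and at 597.7, 613, 627.7 and 587.5 in males. Every male library stood above every female one, with female replicate 1 close to the male range. The fitted difference was 10.6% (95% interval 3.4% to 18.4%, log2 fold change 0.15, SE 0.04), with an adjusted p of 0.098 in edgeR and 0.027 in DESeq2. Uqcrq, the ubiquinone-binding small subunit, likewise did not overlap (mean 778.6 ± 36.4 CPM in female and 850.1 ± 20.1 CPM in male libraries, log2 fold change 0.13, adjusted p = 0.12 in edgeR and 0.04 in DESeq2). Uqcrfs1, the Rieske iron-sulfur protein, was the third gene without overlap, at 842.5 ± 34.2 and 894.3 ± 11.4 CPM (0.09, edgeR adjusted p = 0.24). The core protein gene Uqcrc1 and Cyc1 had log2 fold changes of 0.11 and 0.09 with overlap between the sexes.

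The other complex III genes differed less. Uqcr10, Uqcrb and the second core protein gene Uqcrc2 had log2 fold changes of 0.07, 0.06 and 0.05, and Uqcrh, whose protein forms the hinge to cytochrome c, 0.02. Of the summed exons of Uqcrc2, 19.7% are shared with Pdzd9 on the opposite strand, and the strand setting of the counting is not stated. Cycs (chr6:50562563-50566538) was at 494.1, 462.4, 430.1 and 485.9 CPM in females and at 455.7, 470.6, 492.1 and 443.1 in males. The ranges of the sexes coincided (log2 fold change -0.01, 95% interval -7.92% to 7.31%), and its within-sex SD of 0.0784 on the log2 scale was above that of every other gene of complexes II to IV.

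All 5 ubiquitous genes of complex IV had positive log2 fold changes, between 0.02 and 0.09. Cox6c, a membrane subunit (chr15:35925886-35938246) that shares 7% of its exon bases with Vps13b, was at 788.3, 768.8, 757.4 and 789.4 CPM in females and at 830.6, 819.5, 830.9 and 817.6 in males. All male libraries stood above all female ones, and its within-sex SD, 0.0223 on the log2 scale, was the smallest of the 36 genes. The fitted difference was 6.27% (95% interval 1.11% to 11.7%), with an adjusted p of 0.17 in edgeR and 0.043 in DESeq2. Cox6b1 had the highest level per kilobase of the complex and was at 747.4, 692.8, 721.1 and 728.6 CPM in females and at 746.2, 748.9, 766.7 and 735.6 in males. Only female replicate 1 reached into the male range (log2 fold change 0.05, adjusted p = 0.46). Cox5a, a subunit on the matrix side of which 12.8% of the exons are shared with Gm26631, was at 766.5, 687.2, 717.6 and 750.8 CPM in females and at 716.7, 746.3, 750.1 and 749.9 in males. The highest of all its values was female, and its difference was the smallest of the complex (0.02, adjusted p = 0.84). Cox5b, the zinc-binding matrix subunit, and Cox7c had log2 fold changes of 0.07 and 0.03.

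Complex V had 15 positive and 2 negative log2 fold changes among 17 genes, with a median of 0.06. In the catalytic head, Atp5b (chr10:128083273-128090391) was at 5911, 5772, 5915 and 5869 CPM in females and at 6190, 6007, 6126 and 6448 in males. The sexes did not overlap, and male replicate 4 was the highest (5.55% higher in males, 95% interval 0.496% to 10.9%, edgeR adjusted p = 0.21). Its partner Atp5a1 was at 5490, 5252, 5337 and 5420 CPM in females and at 5495, 5355, 5499 and 5637 in males, with overlap (2.26%, 95% interval -2.53% to 7.29%). The central stalk genes Atp5c1, Atp5d and Atp5e, which encode the gamma, delta and epsilon subunits, had log2 fold changes of 0.07, 0.03 and 0.08. Of these, Atp5c1 did not overlap, at 972.1 ± 21.5 CPM in females and 1019 ± 13.9 in males.

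Peripheral stalk genes, whose proteins hold the head still while the ring turns, were close to each other. Atp5o, Atp5h, Atp5j and Atp5f1 had log2 fold changes of 0.06, 0.06, 0.07 and 0.02, with adjusted p between 0.34 and 0.77. Atp5o and Atp5h did not overlap between the sexes. Of the exon bases of Atp5o, 44% are shared with other genes, Donson on the same strand among them, and 12.7% of those of Atp5j with Gabpa on the opposite strand, so their counts are less certain. Among the small membrane subunits, Atp5j2, Atp5k and Atp5mpl had log2 fold changes of 0.09, 0.08 and 0.08 and Atp5l -0.00. Atp5s was at 16.9, 16.3, 15.7 and 16.7 CPM in females and at 18.7, 18.8, 17.4 and 17.65 in males. These ranges did not overlap (10.4%, 95% interval 2.27% to 19.2%, edgeR adjusted p = 0.15).

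The 3 genes of subunit c, shown above by sequence, had fitted differences of both signs, and none passed the test. Atp5g1 was at 1255, 1141, 1171 and 1206 CPM in females and at 1263, 1237, 1302 and 1169 in males. Atp5g3 was at 1428, 1359, 1303 and 1401 CPM in females and at 1438, 1396, 1436 and 1394 in males. Atp5g2 was at 211.1, 190.7, 199.8 and 202.7 CPM in females and at 196.3, 195.6, 202.6 and 189.7 in males. All 3 overlapped between the sexes, with log2 fold changes of 0.06 for Atp5g1, 0.04 for Atp5g3 and -0.04 for Atp5g2 and edgeR adjusted p of 0.5, 0.56 and 0.67 in that order. Within a library, where no scaling enters, Atp5g2 gave 7.3%, 7.09%, 7.47% and 7.22% of the 3 genes' counts in females and 6.77%, 6.92%, 6.89% and 6.89% in males. These shares did not overlap, a comparison that was chosen after the values were seen and is given without a test. Per base of summed exons, Atp5g3 made up 62.5% to 64.5% of the 3, Atp5g1 24% to 25.4% and Atp5g2 11.3% to 12.5%. With the longest coding transcripts as lengths, Atp5g3 made up 77.8% to 79.4%, and Atp5g1 and Atp5g2 about equal parts. These shares depend on the lengths chosen. The coding transcripts of Atp5g1 run from 596 to 4715 bases, those of Atp5g3 from 714 to 723. Of the counts themselves, Atp5g1 held 42.4% to 44.3% and Atp5g3 48.7% to 50.6%. The order of Atp5g1 and Atp5g3 per base is therefore not settled.

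**Figure D3:**
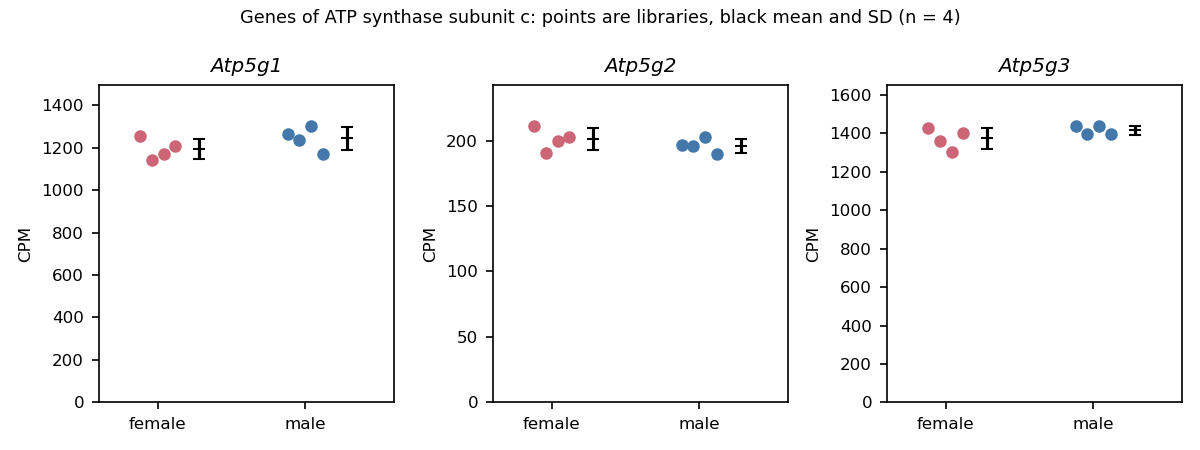
CPM of Atp5g1, Atp5g2 and Atp5g3 in each of the 4 female and 4 male libraries (points), with the mean and SD of each sex beside them in black and each axis starting at 0. The points of the sexes overlap in all 3 genes, and Atp5g2 lies between 189.7 and 211.1 CPM where the other two are at 1141 or more.

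The 36 genes tended to vary together across libraries, and 1 library of each sex stood out. Female replicate 2 had the lowest value of all 8 libraries in 23 of the 36 genes, and male replicate 3 the highest in 22. As the median deviation of the 36 genes from their own means, the female libraries were at 0.02, -0.08, -0.05 and -0.00 on the log2 scale and the male ones at 0.03, 0.02, 0.06 and 0.02. Female replicate 1 thus stood within the male range, next to male replicate 4. Without female replicate 2, 29 genes were positive with a median of 0.04, and without male replicate 3 these values were 33 and 0.05. Leaving out both, 28 were positive with a median of 0.04, and 1 gene had an unadjusted p below 0.05 (2.78%, beside 6.97% of all genes in the same direction).

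The counts of genes past an unadjusted p of 0.05, 9 with all libraries, moved with single libraries. Without female replicates 1 to 4 in turn they were 10, 4, 5 and 5, all higher in males, beside 9.38%, 7.91%, 8.75% and 9.02% of all genes in that direction. Without male replicates 1 to 4 they were 5, 7, 5 and 8, beside 9.13%, 9.6%, 8.38% and 9.76%. The count without overlap, also 9 with all libraries, was 15, 9, 9 and 9 without the female replicates in turn, beside 9.08%, 7.87%, 8.62% and 8.57% of all genes. It was 9, 13, 9 and 13 without the male replicates, beside 8.5%, 9.13%, 7.6% and 8.91%. Without both female replicate 2 and male replicate 3 it was 9, beside 9.73%.

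Cardiomyocyte markers moved with the subunit genes in part. Their median deviations were 0.01, -0.06, -0.06 and 0.00 in the female libraries and 0.00, -0.03, 0.05 and 0.05 in the male ones. The difference of the 2 medians, subunit genes minus cardiomyocyte markers, was 0.0081, -0.018, 0.0033 and -0.0066 in females and 0.026, 0.049, 0.017 and -0.031 in males. These values overlapped between the sexes, since male replicate 4 was the lowest of all. The median log2 fold change of the 12 markers was 0.01, with 6 positive and 6 negative. By edgeR's test 1 of the 12 was higher in males and 0 in females, beside 2.03% and 1.76% of all genes. This was Myoz2 (log2 fold change 0.17, adjusted p = 0.021). DESeq2 called 2 as higher in males, Myoz2 and Myl3, beside 3.41% of all genes. At an unadjusted p below 0.05 in edgeR, 3 were higher in males and 0 in females, beside 10.1% and 9.39%. White adipocyte markers were highest in female replicates 3 and 2, at 695.7 and 665.7 CPM, the libraries in which the subunit genes were lowest. Fibroblast markers summed to 1248 to 1305 CPM in females and 1038 to 1183 in males. By edgeR's test 2 of 7 were higher in females and 0 in males, beside 1.76% and 2.03% of all genes. The 5 brown adipocyte markers all had negative log2 fold changes, and 2 were higher in females by the test, beside 1.76% of all genes. They summed to 100.6, 140.5, 185.5 and 90.33 CPM in females and 71.44 to 83.15 in males. Much of these sums was Ppara, with means of 46.3 CPM in females and 45.55 in males (edgeR adjusted p = 0.91). Ucp1, the uncoupling protein of brown fat, was at 18.3, 51.1, 81.1 and 9.37 CPM in the female libraries and between 0.0234 and 3.60 in the male ones. The 4 smooth muscle markers were likewise all negative, with 1 higher in females, beside 1.76% of all genes. They summed to 215.7 to 257.1 CPM in females and 161.7 to 201.5 in males. The part of these lists in the result was not tested. In whole-tissue RNA, fewer cells of a type and less RNA per cell cannot be told apart.

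**Figure D4:**
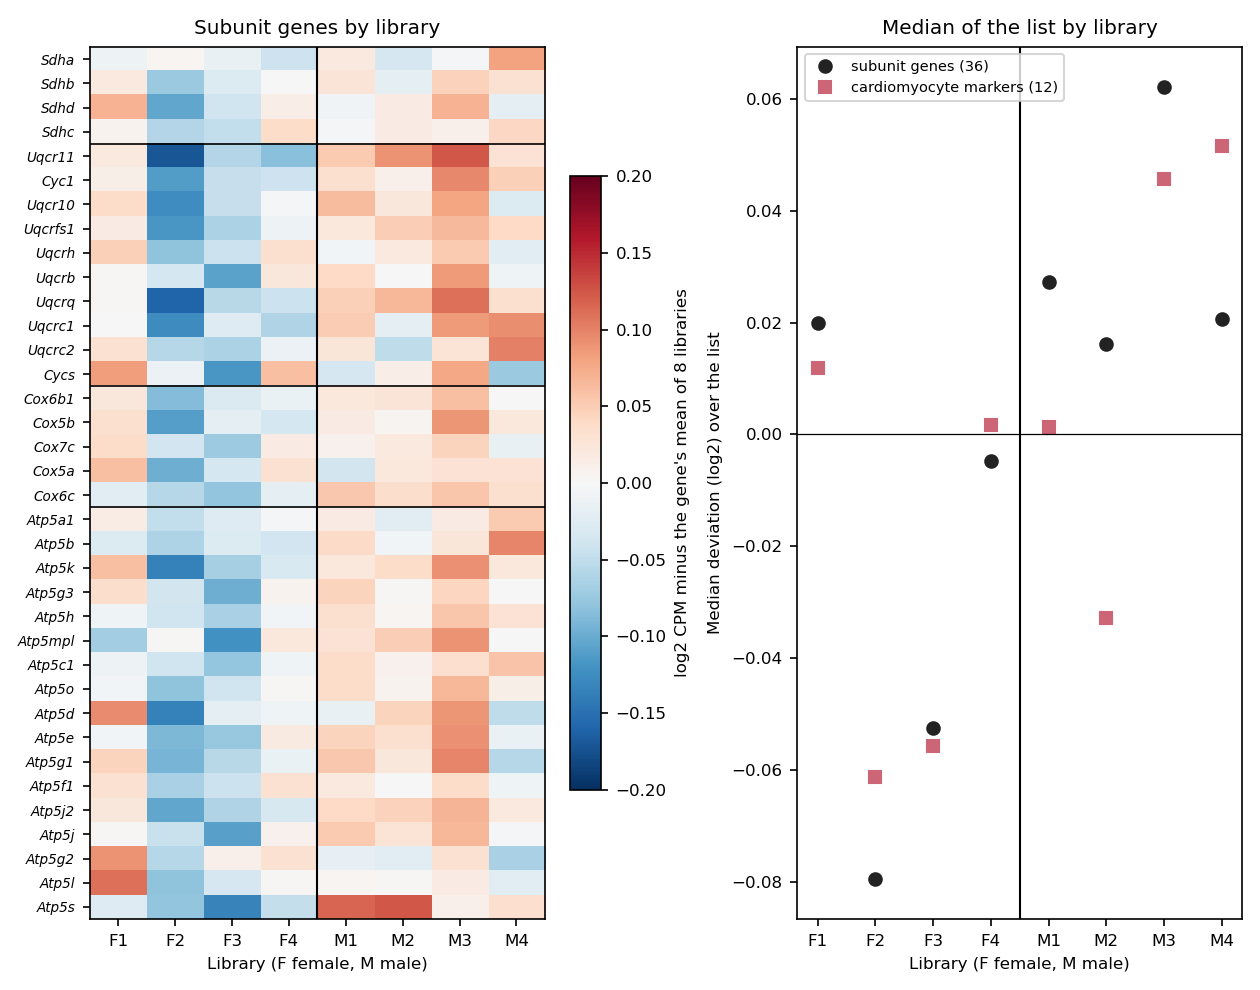
Left, log2 CPM of each of the 36 genes minus its own mean over the 8 libraries, as colour from -0.2 to 0.2, with the complexes separated by lines. Right, the median of these deviations for the subunit genes (circles) and for 12 cardiomyocyte markers (squares), where female replicate 2 lies lowest at -0.08 and male replicate 3 highest at 0.06 for the subunit genes.

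The partners encoded by mitochondrial DNA had larger log2 fold changes, a contrast that was not tested as such. Cytochrome b of complex III, mt-Cytb, was at 21160, 22290, 19940 and 22020 CPM in females and at 25020, 25260, 25730 and 25250 in males, without overlap (log2 fold change 0.25, 95% interval 0.17 to 0.33, edgeR adjusted p = 0.005). The catalytic complex IV subunit mt-Co1 was also higher in males (0.24, adjusted p = 0.0059), beside a range of 0.02 to 0.09 for the nuclear subunits of the same complex above. In the list of 6 mitochondrially encoded partners, 5 passed as higher in males and 0 as lower, beside 2.03% and 1.76% of all genes. The ring partner mt-Atp6 (0.47, adjusted p = 0.011) was among them, but mt-Co2, mt-Co3, mt-Atp6 and mt-Atp8 were at 2.599 to 9.554 CPM in females beside 44720 for mt-Co1. How the authors treated reads that map to several places is not stated, so these 4 values are uncertain.

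Genes that assemble, supply or regulate these complexes gave few calls. Of the 4 assembly factors of complex II, 1 was higher in males by edgeR and 0 in females, beside 2.03% and 1.76% of all genes. This was Sdhaf2, which helps to attach the flavin to Sdha, at 45.4, 44.1, 42.5 and 46.1 CPM in females and 51.9, 46.9, 52.15 and 50.7 in males. The sexes did not overlap (log2 fold change 0.18, edgeR adjusted p = 0.046), but the call was lost in 10 of 17 alternatives. It was kept without male replicate 2 and lost without any other single library, with an adjusted p of up to 0.13 without male replicate 3. Of 6 complex III assembly factors, 18 tested complex IV assembly factors and 6 genes of complex V assembly and inhibition, edgeR and limma-voom called 0, while DESeq2 called 0, 1 and 1. The genes with the smallest p were Uqcc3 (0.14, edgeR adjusted p = 0.093), the heme synthesis gene Cox10 (0.17, adjusted p = 0.07) and Atpaf1, which assembles the catalytic head (0.14, adjusted p = 0.073). The genes that DESeq2 called were Cox10 and Atpaf1, higher in males with adjusted p of 0.022 and 0.04. In edgeR the adjusted p of Cox10 was 0.032 with no filter and 0.038 without female replicate 1, that of Atpaf1 0.047 without female replicate 1 and that of Uqcc3 0.046 without male replicate 4. At an unadjusted p below 0.05 these 3 lists held 2 of 6, 4 of 18 and 1 of 6 genes, all higher in males, beside 10.1% of all genes.

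None of the 6 carriers of ATP, phosphate and metabolites was called by edgeR, DESeq2 or limma-voom, and 0 had an unadjusted p below 0.05. Vdac1, a channel of the outer membrane, had the smallest p (0.05, adjusted p = 0.46). Of 13 regulators of respiratory gene transcription, 1 passed edgeR's test as higher in females and 0 as higher in males, beside 1.76% and 2.03% of all genes. At an unadjusted p below 0.05, 3 of 13 were higher in females and 0 in males, beside 9.39% and 10.1%. DESeq2 called 2, both higher in females, Ppargc1b and Esrrb (DESeq2 adjusted p = 5.8e-06 and 0.021), where it called 6% of all genes in both directions. The gene that passed edgeR's test was Ppargc1b, a coactivator of nuclear receptors, at 33, 40.5, 40.9 and 35.1 CPM in females and 28.7, 30, 25.6 and 26 in males. All female libraries stood above all male ones (log2 fold change -0.44, SE 0.08, edgeR adjusted p = 0.011), opposite in direction to 33 of the 36 subunit genes, and the call was kept in all 17 alternatives. Ppargc1b was highest in female replicates 3 and 2, at 40.9 and 40.5 CPM, where Ucp1 was highest too, at 81.1 and 51.1 CPM. The part of the adipocyte content of the libraries in this difference was not tested. Of the 12 other complex IV subunits listed, 2 were higher in males by edgeR and 0 in females, beside 2.03% and 1.76% of all genes, the muscle-type Cox7a1 (0.20, adjusted p = 0.048) and Cox8b (0.15, adjusted p = 0.04). DESeq2 called 3 as higher in males, Cox4i1 (adjusted p = 0.0031) among them, beside 3.41% of all genes. It called 1 as higher in females, Cox6a1 (adjusted p = 0.045). Limma-voom called 3 as higher in males, Cox4i1 (adjusted p = 0.046) among them, and 0 in females, beside 2.08% of all genes higher in males. The edgeR calls of Cox7a1 and Cox8b were kept without female replicate 1 and lost without any other single library, with adjusted p of up to 0.13 and 0.11 without male replicate 3. Over the 17 alternatives the call of Cox7a1 was lost in 12 and that of Cox8b in 8, with adjusted p of 0.09 and 0.095 in the fit with a replicate block.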

How the data were processed

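Raw counts per gene were deposited by the authors for 8 heart libraries. The submitters' processing notes name Trimmomatic 0.36, STAR 2.5.2b, Subread 1.5.2 with its counter featureCounts, and the build GRCm38 (mm10). Annotation, strand setting and treatment of reads with several placements are not given in the sources used here. The deposited tables of single libraries held the same counts (100%) and gave exon coordinates and lengths. Symbols were found for 48970 of 49315 IDs. Pseudogene rows of the same families (6) held at most 29 counts in a library.

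After filterByExpr (at a minimum count of 10 and total of 15) and TMM scaling, males were compared with females by the quasi-likelihood test in edgeR 4.0.16 (R 4.3.3), with p-values adjusted by Benjamini-Hochberg over 16180 genes at 0.05. Standard errors (SE) are the log2 fold change over the root of F. Log2 CPM used a prior count of 2. The fit was tested on simulated data. The same-numbered libraries of the sexes are not stated to be pairs.

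Alternatives were other scalings and filters, DESeq2 1.42.0, voom of limma 3.58.1, thinning, removal of mitochondrial genes, a replicate block and each library left out. Named in full were, per complex, the genes with the smallest p, the highest level per kilobase and the extreme fold changes, and the subunit c genes. Other members are given by fold change. From each of the 8 pathway lists, up to 2 called genes per direction, or the one with the smallest p, are named, and mt-Cytb, mt-Co1 and mt-Atp6 always. Values of Uqcrq, Uqcrfs1, Sdhc, Atp5b and Atp5c1 are given outside this rule and were chosen after they were seen. The members and lists were chosen with earlier results of these data known. A deposited normalized table was not used here.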

Additional observations from a re-analysis of the deposited data

Results flagged for a closer look

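Among 94 groups of 4 values checked, 1 held a library far from the others, where chance gives about 1 in 20 groups. Cox5a was at 717 CPM in male replicate 1, against 746 to 750 in the other male libraries, and this value lies within the female range.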

How the results depend on the processing

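Over 17 alternatives the 36 genes gave 612 fitted values, of which 595 kept their direction and their side of the threshold, 3 passed it in DESeq2 (Uqcr11, Uqcrq and Cox6c) and 14 turned direction. Those 14 belong to Atp5l, Cycs, Sdhd, Uqcrh, Cox5a and Atp5d, whose log2 fold changes lie near 0. Atp5l turned to 0.00427 with no filter, 0.000975 in limma-voom, 0.000852 with the replicate block and 0.000436 after thinning. With 1 library left out, Atp5l ran from -0.0292 to 0.0374, Cycs from -0.0485 to 0.0185, Sdhd from -0.00164 to 0.0583, Uqcrh from -0.00392 to 0.0411, Cox5a from -0.0103 to 0.0441 and Atp5d from -0.00755 to 0.0712. The count of the 36 called was 0 in every other fit, 3 in DESeq2, and 9 at an unadjusted p below 0.05. The count over all genes was 971 in DESeq2, 315 to 490 when any single library was dropped (354 without female replicate 2, 379 without female replicate 3, 315 without male replicate 3) and 169 when female replicate 2 and male replicate 3 were both dropped, an alternative chosen after the data were seen; the cause was not tested. The median of the 36 genes stayed between 0.0384 and 0.0706 with 1 library left out. The median of all genes lay between -0.00623 and -0.00038 in the 17 alternatives. With the replicate block, 0 of the 36 and 427 genes in all were called. Same-numbered libraries correlated at -0.047 to 0.054 in their deviations, beside -0.082 to 0.0933 for libraries with different numbers. With 4 libraries per sex, these values cannot show whether the numbers mark pairs.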

Other observations

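A further subunit of ATP synthase is listed under the symbol Usmg5 (Atp5md in RefSeq) and so falls outside the symbol rule. Its mean level was 280.8 ± 15.5 CPM in female and 294.3 ± 16.4 CPM in male libraries (SD, n = 4, log2 fold change 0.07, edgeR adjusted p = 0.51). Atpif1, the inhibitor of ATP synthase, was at 94.3 ± 3.36 and 94.4 ± 4.42 CPM (log2 fold change 0.00, 95% interval -0.09 to 0.09). Both genes were named after their values were seen.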
